A study of Homo sapiens with 12 samples.

Results

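Translation initiation factor genes were taken from the deposited expression table by name: every symbol that begins with EIF and a number from 1 to 6 was kept, without the eIF2 kinase genes (EIF2AK) and the 4E-BP genes (EIF4EBP). This gave 49 of the 17520 genes in the table, and they were grouped by factor number. The cells were HEK293E, a transformed line derived from human embryonic kidney, starved of serum overnight. One group then received 250 nM Torin1, an inhibitor that blocks the catalytic site of the kinase mTOR, as pretreatment before 200 nM insulin for 30 h, and the other received the same insulin without Torin1. Each condition had 3 input libraries of poly(A) RNA and 3 miCLIP libraries. The miCLIP method crosslinks RNA to an antibody recognising N6-methyladenosine (m6A) and reads the base substitutions this leaves next to methylated adenosines. Both conditions carried the starvation and the insulin, so all comparisons are of Torin1 plus insulin with insulin alone in 1 cell line.

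Initiation factors bring the initiator tRNA, the small ribosomal subunit and the mRNA cap together, scan for the start codon and release the subunits for joining. mTOR acts on this machinery through the 4E-BPs, which block the cap-binding protein eIF4E, and through S6 kinase, which phosphorylates eIF4B. Many mRNAs of the translation machinery also begin with a C followed by a run of pyrimidines, the terminal oligopyrimidine (TOP) motif, and their translation and stability are known to depend on mTOR and the RNA-binding protein LARP1. m6A is placed co-transcriptionally on adenosines in a short consensus motif and is bound by reader proteins that affect mRNA decay and translation.

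Expression values are the authors' normalized whole numbers, without a unit, and are compared only within a gene because no transcript length was applied. Totals were 11418114 to 11438881 in the insulin+Torin1 libraries and 12424643 to 12528454 in the insulin libraries. The spacing of the low values put the depth at 7.29 to 11.8 M reads in 5 libraries and at no less than 11.4 M in insulin+Torin1 replicate 1. Replicates differed by 1.13 to 1.40 times the squared difference that sampling alone gives in the 4 pairs where it could be computed. The values of those pairs were therefore not copies of each other. A spread this near to sampling cannot tell separate cultures from repeated sequencing of the same RNA. Of 7 genes listed as markers of embryonic kidney and neural expression, PAX8 and NEFL had no expression values and PAX2 stayed at 6 to 11. CDH2 and VIM were abundant and higher with Torin1. NEFM averaged 87.3 ± 14.2 with Torin1 and 183 ± 40.1 with insulin alone, and NEFH 4.67 ± 3.06 with Torin1 and 44.3 ± 9.45 with insulin alone (SD, n = 3 each), so both were lower. The summed level of that list was 9335 to 9398 in insulin+Torin1 libraries and 3921 to 4064 in insulin libraries, most of it VIM. Blood markers summed to 44 to 49 with Torin1 and 45 to 74 with insulin alone, with PTPRC and CD3E at 0 or 1. Of the keratinocyte and hepatocyte markers only ALB and APOA1 had values, which summed to 8 to 14 in both groups. KRT5, KRT14, HBB and PECAM1 had no expression values, so no keratinocyte gene could be read. Fibroblast and endothelial markers summed to 528 to 548 with Torin1, against 188 to 238 with insulin alone, and 2 of the 5 genes, COL1A1 and COL3A1, passed the filter and rose. The part of any of these markers in the results below was not tested. The labels call the replicates biological but name no separate cultures, so the p-values rest on the spread among these libraries alone, part of which can be technical.

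With Torin1 the initiation factor genes split into a set that rose and a set of nearly the same size that fell. Of the 49, 46 passed a filter that asks for 10 or more in 3 or more libraries, and 22 of these were higher and 20 lower with Torin1 at a Benjamini-Hochberg adjusted p below 0.05 in limma, adjusted over all 13842 genes tested. Across all tested genes 43.4% were called higher, 42.5% lower and 86.0% in either direction, so the share of members called was near the background. By the test for a change beyond 1.5-fold, 11 members were higher and 9 lower, where 25.0% of all genes were higher and 22.5% lower. The groups did not overlap for 41 members, against 86.3% of all genes. The median log2 fold change was 0.10 over the members and 0.02 over all genes, and the median size without sign was 0.64 over the members and 0.74 over all genes. In bulk RNA, fewer cells of a type and less RNA per cell cannot be told apart.

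All 5 members named for eIF5 fell, with a median of -1.39 on the log2 scale. Among the 13 tested eIF3 subunits 9 rose and 4 fell, with a median of 0.32, although the falls of EIF3B, EIF3I and EIF3K turned under quantile normalization. Of the eIF3 genes EIF3E and EIF3L passed the test beyond 1.5-fold. The eIF2 family had 6 higher, 4 lower and 1 not called among 11 (median 0.40), and the eIF4 family 5 higher, 4 lower and 3 not called among 12 (median 0.05). Among the 4 tested eIF1 genes 1 rose and 3 fell (median -0.60), and EIF6 was the single member of its family. The members not called were EIF2S3L, EIF4A1, EIF4E and EIF4H. EIF1AY, EIF3CL and EIF4E1B stayed under the filter and were not tested.

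**Figure D1:**
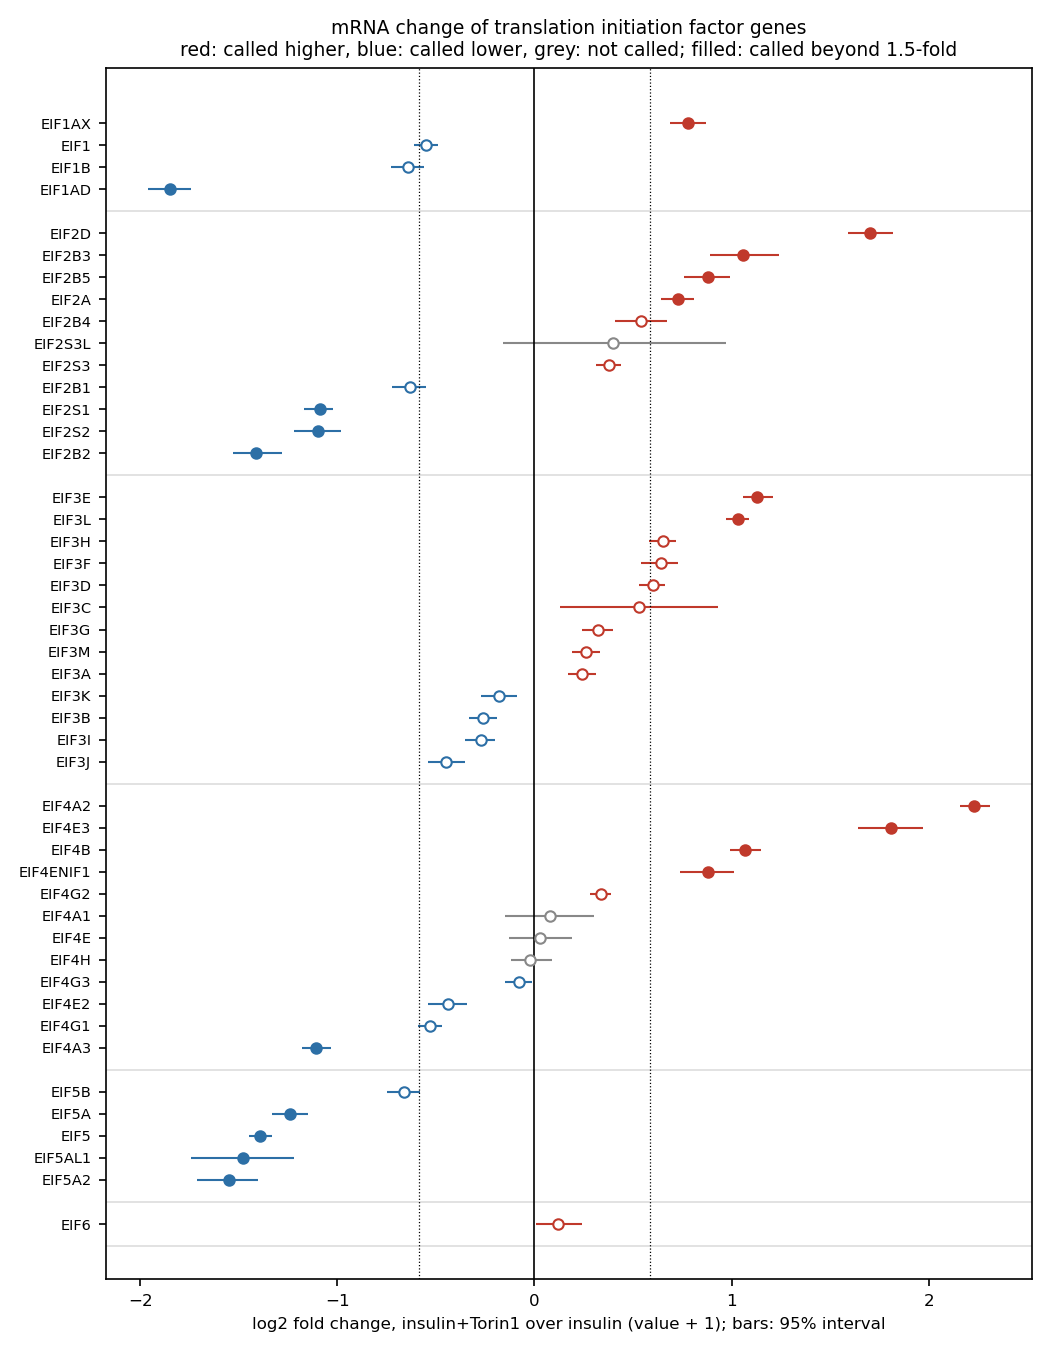
Log2 fold change, insulin+Torin1 over insulin, of the 46 tested initiation factor genes (x axis, on the log2(value + 1) scale), grouped by factor number; points are the limma estimates from 3 libraries per condition, bars are 95% intervals, and dotted lines mark a 1.5-fold change. The eIF5 genes all lie left of 0, while the other multi-member families hold genes on both sides, from EIF4A2 at 2.23 to EIF1AD at -1.85.

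The start of each transcript was read from RefSeq (GRCh38.p14) because TOP mRNAs are defined by their first bases. Entries were found for 41 of the 49 members, and a start was counted when its first base was C and at least the 4 bases after it were each C or T. There were 9 such members, 22.0% of the 41, against 7.22% of the 10429 tested genes with an entry and 5.14% of all 27305 genes with one. Counted by entry, since a gene can have several, it was 9 of the members' 56 entries and 4.07% of all 35116. Each is shown with the 10 bases before the annotated start in lower case and the run that begins at the start in capitals, 5′ to 3′ on the gene's strand.
EIF4A2, chr3:186783567-186783596, plus strand: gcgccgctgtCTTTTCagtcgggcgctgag
EIF2D, chr1:206612446-206612475, minus strand: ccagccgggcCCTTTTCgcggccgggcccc
EIF4B, chr12:53006446-53006475, plus strand: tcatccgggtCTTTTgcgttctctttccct
EIF2A, chr3:150546777-150546806, plus strand: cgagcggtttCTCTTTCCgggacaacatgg
EIF3F, chr11:7987327-7987356, plus strand: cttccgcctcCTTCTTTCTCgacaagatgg
EIF3D, chr22:36529147-36529176, minus strand: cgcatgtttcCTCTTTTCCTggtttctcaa
EIF2S3, chrX:24054946-24054975, plus strand: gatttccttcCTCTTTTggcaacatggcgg
EIF3M, chr11:32583821-32583850, plus strand: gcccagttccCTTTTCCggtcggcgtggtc
EIF3K, chr19:38619178-38619207, plus strand: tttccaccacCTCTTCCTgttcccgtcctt
For contrast, 3 of the 8 members with another start that fell beyond 1.5-fold are shown, with the first of the 2 EIF5 entries. Another 5 members with another start rose beyond 1.5-fold and are not shown.
EIF5, chr14:103334227-103334256, plus strand: ggcgttgttcagtcagagcgagaacattcc
EIF4A3, chr17:80147109-80147138, minus strand: cggcagcggcacagcgaggtcggcagcggc
EIF2S1, chr14:67360318-67360347, plus strand: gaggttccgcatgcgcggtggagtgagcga

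Of the 9 members with a C and pyrimidine start, 8 rose and 1, EIF3K, fell, a call that was lost under equal totals and quantile normalization, and 4 rose beyond 1.5-fold (EIF4A2, EIF2D, EIF4B and EIF2A). Their median log2 fold change was 0.64. The 30 tested members with another start held 9 that rose, 18 that fell and 3 not called, with a median of -0.36. EIF2S2, EIF2S3L, EIF3A, EIF3CL, EIF3E, EIF3G, EIF3H and EIF3L had no entry, and of the 7 of them that were tested 5 rose and 1 fell. Among all 753 tested genes with such a start 54.8% rose and 32.4% fell, with a median of 0.26, and among the 9676 with another start 42.3% rose and 43.9% fell, with a median of -0.02. Without the members and the ribosomal protein genes, the 697 remaining genes with such a start had 51.6% higher and 34.7% lower and a median of 0.21. This grouping was chosen after the fold changes were seen, an annotated start can differ from the start used in these cells, and a match is a description of the annotated bases.

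**Figure D2:**
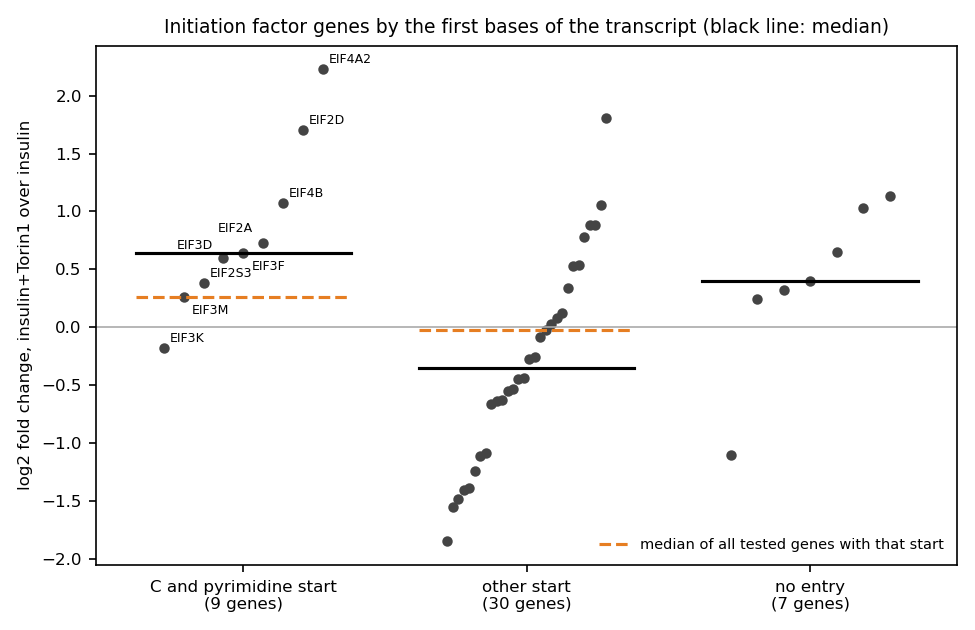
Log2 fold change, insulin+Torin1 over insulin (y axis), of each tested initiation factor gene by the first bases of its RefSeq transcript (x axis), with the median of each class as a black line and the median of all tested genes with that start as a dashed line. Of the 9 genes with a C and pyrimidine start 8 lie above 0 (median 0.64), and the 30 genes with another start have a median of -0.36.

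The helicase eIF4A unwinds the leader of the mRNA as part of eIF4F, and one paralog rose while another fell. EIF4A2 had values of 5231, 5097 and 5048 in the insulin+Torin1 libraries, against 1054, 1131 and 1088 in the insulin libraries. This was the largest rise among the members, 4.70-fold, or 2.23 on the log2 scale (SE 0.037, adjusted p = 2.4e-23), and the groups lay far apart. EIF4A3, a related helicase that serves as a core of the exon junction complex, had 1516, 1475 and 1528 with Torin1, against 3190, 3342 and 3198 with insulin alone. All 3 Torin1 libraries were below all 3 insulin libraries, with a fall of 1.11 on the log2 scale (SE 0.036, adjusted p = 2.9e-18). EIF4A1, usually the more abundant eIF4A helicase, had only 159, 169 and 143 with Torin1, against 133, 157 and 157 with insulin alone. These groups overlapped and the change was not called (log2 0.08, 95% interval -0.15 to 0.30), and under quantile normalization the sign turned (-0.28, adjusted p = 0.021). EIF4A1 has 13 annotated pseudogenes and a readthrough partner, SENP3-EIF4A1, so its values are uncertain.

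Of the cap-binding proteins, EIF4E itself was not called while a relative rose. EIF4E had 312, 302 and 277 with Torin1, against 308, 281 and 285 with insulin alone. The ranges overlapped (log2 0.03, 95% interval -0.13 to 0.19), although quantile normalization gave -0.18 (adjusted p = 0.042). EIF4E3, a cap-binding relative of eIF4E, had 552, 553 and 564 with Torin1, against 143, 159 and 174 with insulin alone. It rose 3.50-fold, by 1.81 on the log2 scale (SE 0.080, adjusted p = 8.7e-16), without overlap. EIF4E2, which encodes 4EHP, a cap-binding protein that represses translation, had 739, 719 and 676 with Torin1, against 950, 972 and 976 with insulin alone. It fell by 0.44 on the log2 scale (SE 0.049), which did not pass 1.5-fold. EIF4ENIF1, which encodes the eIF4E transporter 4E-T, had 597, 578 and 591 with Torin1, against 315, 343 and 303 with insulin alone. It rose by 0.88 on the log2 scale (SE 0.065, adjusted p = 1.2e-11).

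The eIF4G scaffolds join the cap to eIF3, and the 3 genes differed in direction. EIF4G1, the main scaffold, had 6855, 6839 and 6938 with Torin1, against 10160, 9898 and 9707 with insulin alone. It fell by 0.53 on the log2 scale (SE 0.029), without overlap and within 1.5-fold. EIF4G2, which encodes DAP5 and lacks the eIF4E-binding site, had 11327, 11319 and 11510 with Torin1, against 9084, 9053 and 8931 with insulin alone, and rose by 0.34 (SE 0.028). EIF4G3 had 3587, 3605 and 3440 with Torin1, against 3728, 3763 and 3737 with insulin alone. Its fall by 0.08 on the log2 scale (adjusted p = 0.028) turned to 0.05 when totals were made equal and to 0.24 with quantile normalization, and the call was lost without insulin replicate 2 (adjusted p = 0.06) or without insulin+Torin1 replicate 3 (adjusted p = 0.14). Of the 2 cofactors that stimulate eIF4A, EIF4B had 3425, 3362 and 3414 with Torin1, against 1534, 1641 and 1690 with insulin alone. EIF4B rose by 1.07 on the log2 scale (SE 0.038, adjusted p = 1.6e-17), without overlap, and has 9 annotated pseudogenes. EIF4H averaged 1305 ± 3.61 with Torin1 and 1322 ± 104 with insulin alone (SD, n = 3 each) and was not called (log2 -0.02), but was called higher after scaling to equal totals (0.11, adjusted p = 0.041) and quantile normalization (0.20, adjusted p = 0.00056).

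**Figure D3:**
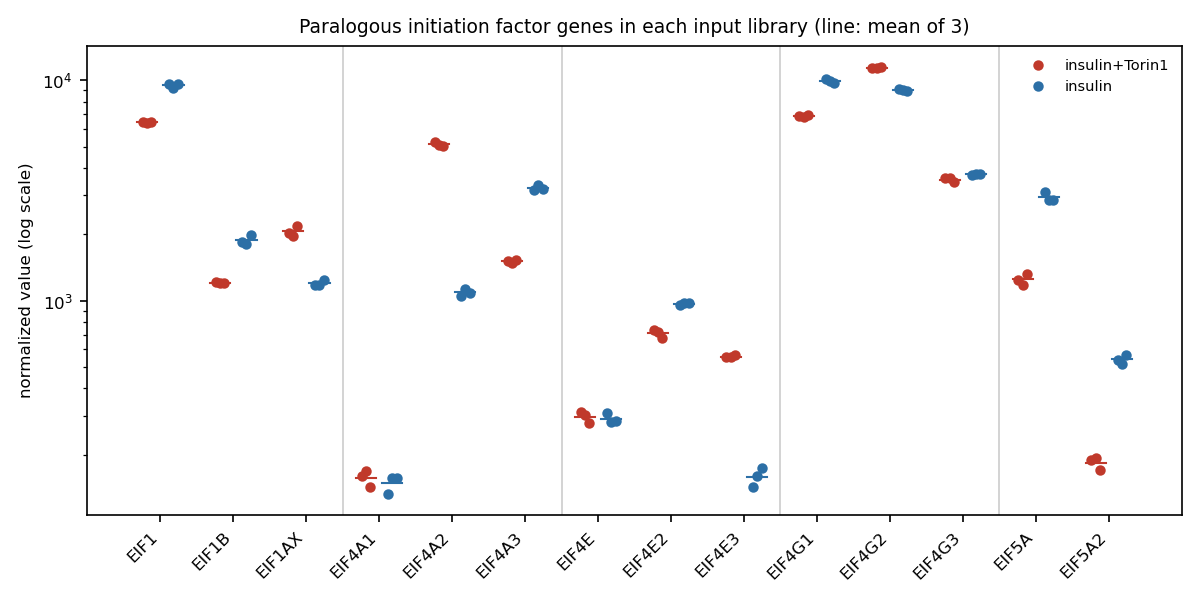
Normalized value (y axis, log scale) in each of the 3 insulin+Torin1 and 3 insulin input libraries for sets of related initiation factor genes, with a line at each mean. The points of EIF4A2, EIF4E3 and EIF1AX lie higher with Torin1, those of EIF4A3, EIF4G1, EIF1, EIF1B, EIF5A and EIF5A2 lie lower, and those of EIF4A1 and EIF4E overlap.

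Of the 4 tested eIF1 genes, EIF1AX rose and the others fell. EIF1, which keeps the scanning ribosome open until it meets the start codon, had 6465, 6414 and 6499 with Torin1, against 9615, 9246 and 9602 with insulin alone. Its close relative EIF1B had 1210, 1198 and 1198 with Torin1, against 1848, 1803 and 1984 with insulin alone. Both fell without overlap, EIF1 by 0.55 (SE 0.029) and EIF1B by 0.64 (SE 0.042) on the log2 scale. EIF1AX, whose product eIF1A works beside eIF1 on the small subunit, was higher, with 2024, 1971 and 2181 under Torin1, against 1177, 1180 and 1234 under insulin alone. It rose by 0.78 on the log2 scale (SE 0.043, adjusted p = 5.1e-14). EIF1AD, named for a domain like that of eIF1A, had 323, 331 and 344 with Torin1, against 1211, 1212 and 1176 with insulin alone. Among the members it had the largest fall, 3.60-fold (log2 -1.85, SE 0.053, adjusted p = 2.5e-19).

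EIF5 encodes the protein that triggers GTP hydrolysis by eIF2 when the start codon is found. It had 5063, 4945 and 4836 with Torin1, against 12854, 13342 and 12727 with insulin alone. This fall, 2.62-fold (log2 -1.39, SE 0.030, adjusted p = 1.9e-21), left no overlap. EIF5B, the GTPase that joins the ribosomal subunits, averaged 1378 ± 73.3 with Torin1 and 2177 ± 17 with insulin alone (SD, n = 3 each). It fell 1.58-fold (log2 -0.66) and did not pass the test for a change beyond 1.5-fold (adjusted p = 0.082). EIF6, which holds large subunits apart from small ones, averaged 666 ± 30.3 with Torin1 and 612 ± 22.9 with insulin alone, and its rise of 0.12 (adjusted p = 0.047) was lost without insulin replicate 3 (adjusted p = 0.15), without insulin+Torin1 replicate 1 (0.18) or without insulin+Torin1 replicate 3 (0.14).

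The genes of eIF5A, a hypusine-bearing protein now known mainly for helping elongation and termination, fell together. EIF5A had 1244, 1176 and 1323 with Torin1, against 3127, 2872 and 2850 with insulin alone. EIF5A2, its paralog, had 189, 192 and 170 with Torin1, against 538, 516 and 569 with insulin alone. No Torin1 library of either gene reached the lowest insulin library, and the falls were 1.24 (SE 0.045) for EIF5A and 1.55 (SE 0.076) for EIF5A2 on the log2 scale. EIF5AL1, an intronless copy of EIF5A, had 126, 107 and 81 with Torin1, against 303, 265 and 299 with insulin alone (log2 -1.48, SE 0.125). Its reads may be those of EIF5A, so it adds no separate evidence.

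eIF2 carries the initiator tRNA, and of its 3 subunit genes 2 fell and 1 rose. EIF2S1, the alpha subunit that stress kinases phosphorylate, had 1472, 1459 and 1414 with Torin1, against 3016, 3137 and 3108 with insulin alone. EIF2S2, the beta subunit, had 500, 460 and 514 with Torin1, against 986, 1085 and 1095 with insulin alone. Both fell without overlap, EIF2S1 by 1.09 (SE 0.036) and EIF2S2 by 1.10 (SE 0.057) on the log2 scale. EIF2S3, the gamma subunit that binds GTP and the tRNA, averaged 4929 ± 81.7 with Torin1 and 3793 ± 87.6 with insulin alone and rose by 0.38. Its intronless copy, listed as EIF2S3L (EIF2S3B in RefSeq), had 18 to 26 with Torin1, against 14 to 19 with insulin alone, and was not called.

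eIF2B recharges eIF2 with GTP, and 3 of its 5 subunit genes rose while 2 fell. EIF2B5, the catalytic epsilon subunit, had 907, 919 and 944 with Torin1, against 507, 465 and 538 with insulin alone (log2 0.88, SE 0.057). EIF2B3, the gamma subunit, had 460, 483 and 464 with Torin1, against 228, 194 and 254 with insulin alone (log2 1.06, SE 0.085). Both were above 1.5-fold and without overlap, and EIF2B4, the delta subunit, rose by 0.54. EIF2B2, the beta subunit, had 295, 308 and 316 with Torin1, against 797, 798 and 846 with insulin alone (log2 -1.41, SE 0.059). EIF2B1, the alpha subunit, fell by 0.63 on the log2 scale and did not pass the test beyond 1.5-fold (adjusted p = 0.22). The genes of the catalytic pair, gamma and epsilon, were thus higher with Torin1, and the alpha and beta genes lower.

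EIF2A and EIF2D are not subunits of eIF2 but separate proteins that can bring the initiator tRNA to the ribosome, and eIF2D also recycles post-termination subunits. EIF2D had 1234, 1271 and 1417 with Torin1, against 395, 397 and 407 with insulin alone. It rose 3.26-fold (log2 1.70, SE 0.055, adjusted p = 2.5e-18), without overlap. EIF2A had 3417, 3262 and 3458 with Torin1, against 1931, 2016 and 2191 with insulin alone, a rise of 0.73 on the log2 scale (SE 0.042). Both carry the C and pyrimidine start shown above.

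eIF3 is the large scaffold on the small ribosomal subunit, and most of its subunit genes rose modestly. Of the 8 genes of its PCI and MPN core (EIF3A, EIF3C, EIF3E, EIF3F, EIF3H, EIF3K, EIF3L and EIF3M) 7 rose and 1 fell, with a median of 0.58. EIF3E had 10114, 9843 and 9747 with Torin1, against 4402, 4351 and 4792 with insulin alone. EIF3L had 10059, 9903 and 9953 with Torin1, against 4894, 4827 and 4973 with insulin alone. The groups did not overlap for either gene, and the rises were 2.19-fold for EIF3E (log2 1.13, SE 0.035) and 2.04-fold for EIF3L (log2 1.03, SE 0.029). EIF3H (log2 0.65, 1.57-fold) and EIF3F (log2 0.64, 1.55-fold) rose but did not pass the test for a change beyond 1.5-fold (adjusted p = 0.083 and 0.27). EIF3M and EIF3A rose by 0.26 and 0.24 on the log2 scale.

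EIF3C rose by 0.53 in the fit, but its values of 69, 48 and 74 with Torin1 overlapped those of 37, 51 and 42 with insulin alone. Its adjusted p of 0.014 became 0.052 without insulin replicate 1, 0.068 without insulin+Torin1 replicate 1 and 0.085 without insulin+Torin1 replicate 3, and 0.46 with quantile normalization. EIF3C and EIF3CL are near-identical copies on chromosome 16 between which reads cannot be divided, so the low level of both is uncertain. EIF3K fell by 0.18, which was no longer called when totals were made equal (-0.05) and turned to 0.04 with quantile normalization.

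Outside the core, EIF3D, whose product can itself bind the cap of some mRNAs, rose by 0.60 (SE 0.032) on the log2 scale. EIF3G, an RNA-binding subunit, rose by 0.32 (SE 0.040). Its partners in the same module fell, EIF3B by 0.26 (SE 0.036) and EIF3I by 0.27 (SE 0.037), but under quantile normalization they stood at 0.06 and 0.04 and neither was called. EIF3J, a loosely bound subunit, averaged 771 ± 21.7 with Torin1 and 1051 ± 25.5 with insulin alone and fell by 0.45.

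Among 29 listed genes that regulate or assist initiation, 28 were tested, and 8 rose, 17 fell and 3 were not called, with a median log2 fold change of -0.29. Over all tested genes 43.4% were called higher, 42.5% lower and 86.0% in either direction, so the share called at all was near the background. The largest falls were in MKNK2, a kinase of eIF4E, with 803 ± 34.3 under Torin1 and 3364 ± 150 under insulin alone (log2 -2.06), and in the 2 genes that recruit the phosphatase of eIF2 alpha. PPP1R15B, the constitutive one, averaged 1460 ± 39.5 with Torin1 and 6074 ± 123 with insulin alone (log2 -2.06). PPP1R15A, the stress-induced one (GADD34), averaged 678 ± 4.93 with Torin1 and 2596 ± 30.9 with insulin alone (log2 -1.93). EIF2AK4 (GCN2), the eIF2 kinase that senses uncharged tRNA, had the largest rise, with 1793 ± 45.1 under Torin1 and 452 ± 5.29 under insulin alone (log2 1.99). MCTS1, a partner of DENR in reinitiation, rose by 1.10, and PABPC1, the cytoplasmic poly(A)-binding protein, rose by 1.04. Of the 4E-BP genes, EIF4EBP1 fell by 0.60 (305 ± 5.86 with Torin1 and 466 ± 56.3 with insulin alone) and EIF4EBP2 rose by 0.20 (1791 ± 36 with Torin1 and 1556 ± 33 with insulin alone). All means are ± SD of 3 libraries.

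m6A sites were deposited as 1 list per condition in which each position stands under 1 replicate, so no test between conditions was possible. The insulin+Torin1 list held 56298, 1552 and 5728 sites under replicates 1, 2 and 3, and the insulin list 50656, 39670 and 6345. Because replicate 2 contributed so unequally, numbers are given for all replicates and for replicate 1. The replicate 1 numbers hold only entries with that label, and a position under another label may also have been seen in replicate 1. The 2 lists shared 27378 positions, of which 16264 stood under replicate 1 in both. The part of this labelling in any change of order between the 2 sets of numbers was not tested. A site was given to a gene when it lay on that gene's strand in the body of exactly 1 protein-coding gene (RefSeq, GRCh38), and no exon or UTR annotation was used. Every site lies in the consensus of A, G or T, then A or G, then A, C and a final A, C or T, with the methylated A in the middle.

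Initiation factor genes held 243 sites in the insulin+Torin1 list and 294 in the insulin list, but under replicate 1 the order turned, with 220 and 158. Of the 45 members with a site, 16 had fewer with Torin1, 21 had more and 8 had equal numbers, where 58.9% of all 11748 genes with a site had fewer and 29.7% more. Under replicate 1, 10 had fewer and 32 more, against 33.5% and 53.1% of 10943 genes. The 2 lists shared 100 member sites, 41.2% of the insulin+Torin1 list and 34.0% of the insulin list, and over all genes 43.1% and 28.3%. Of member sites, 11.9% with Torin1 and 11.2% with insulin alone read ggAct (methylated base in capitals), and 10.3% and 11.6% read ggAca. Of all listed sites, 12.1% with Torin1 and 11.1% with insulin alone read ggAct, and 14% and 13.4% read ggAca.

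Site numbers were set beside the direction of the mRNA. Of the 22 members called higher, 14 had more sites with Torin1 and 3 fewer (19 and 1 under replicate 1). Of the 19 members called lower that had a site, 3 had more and 13 fewer, but under replicate 1 there were 9 of each. Among all tested genes called higher, 2322 of 4508 with a site had more and 1543 fewer (3186 and 583 of 4271 under replicate 1). Among those called lower, 414 of 4657 had more and 3893 fewer (1389 and 2421 of 4423 under replicate 1). The 22 members called higher held 121 sites with Torin1 and 92 with insulin alone (109 and 42 under replicate 1). The 19 called lower held 105 with Torin1 and 191 with insulin alone (96 and 109 under replicate 1). Across all tested genes called lower the insulin+Torin1 list held 47.7% as many sites as the insulin list, and across those called higher 112%. Under replicate 1 these shares were 76.9% for genes called lower and 199% for genes called higher. Over the 37 members with at least 3 sites in both lists together, Spearman's rho between the ratio of sites and the log2 fold change of mRNA was 0.72, and it was 0.63 over 8409 tested genes. For replicate 1 it was 0.79 over 34 members and 0.62 over 7216 genes. These are descriptions across genes, which are not independent and share their libraries. A site is listed only where reads cover it, and the part of the mRNA level in the number of sites was not tested.

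The eIF5 genes held 12 sites in the insulin+Torin1 list and 48 in the insulin list (11 and 28 under replicate 1). EIF5 alone had 5 sites with Torin1 and 28 with insulin alone, or 5 and 16 under replicate 1. All 5 of its Torin1 sites rested on 1 substituted read each, and in the insulin list 7 of the 28 had at least 2. EIF4G1 had 17 sites with Torin1 and 35 with insulin alone, but 17 and 19 under replicate 1. EIF1 had 10 with Torin1 and 20 with insulin alone, or 8 and 14 under replicate 1. Among the members EIF5, EIF4G1 and EIF1 had the largest losses over all replicates, and each had also fallen in mRNA.

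The largest gains were in genes that rose in mRNA. EIF3E had 11 sites with Torin1 and 1 with insulin alone, EIF3D had 10 and 5, and EIF4ENIF1 had 5 and 0. Without replicate 1 the differences were -1 for EIF3E, -2 for EIF3D and 1 for EIF4ENIF1, so these gains rest on sites listed under that replicate. Other site-rich members were EIF3A, with 18 sites under Torin1 and 24 under insulin alone, and EIF3B, with 13 and 18. Under replicate 1 both turned, to 14 and 12 for EIF3A and 13 and 9 for EIF3B. EIF4A1, low in the expression table, held 11 sites with Torin1 and 10 with insulin alone.

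**Figure D4:**
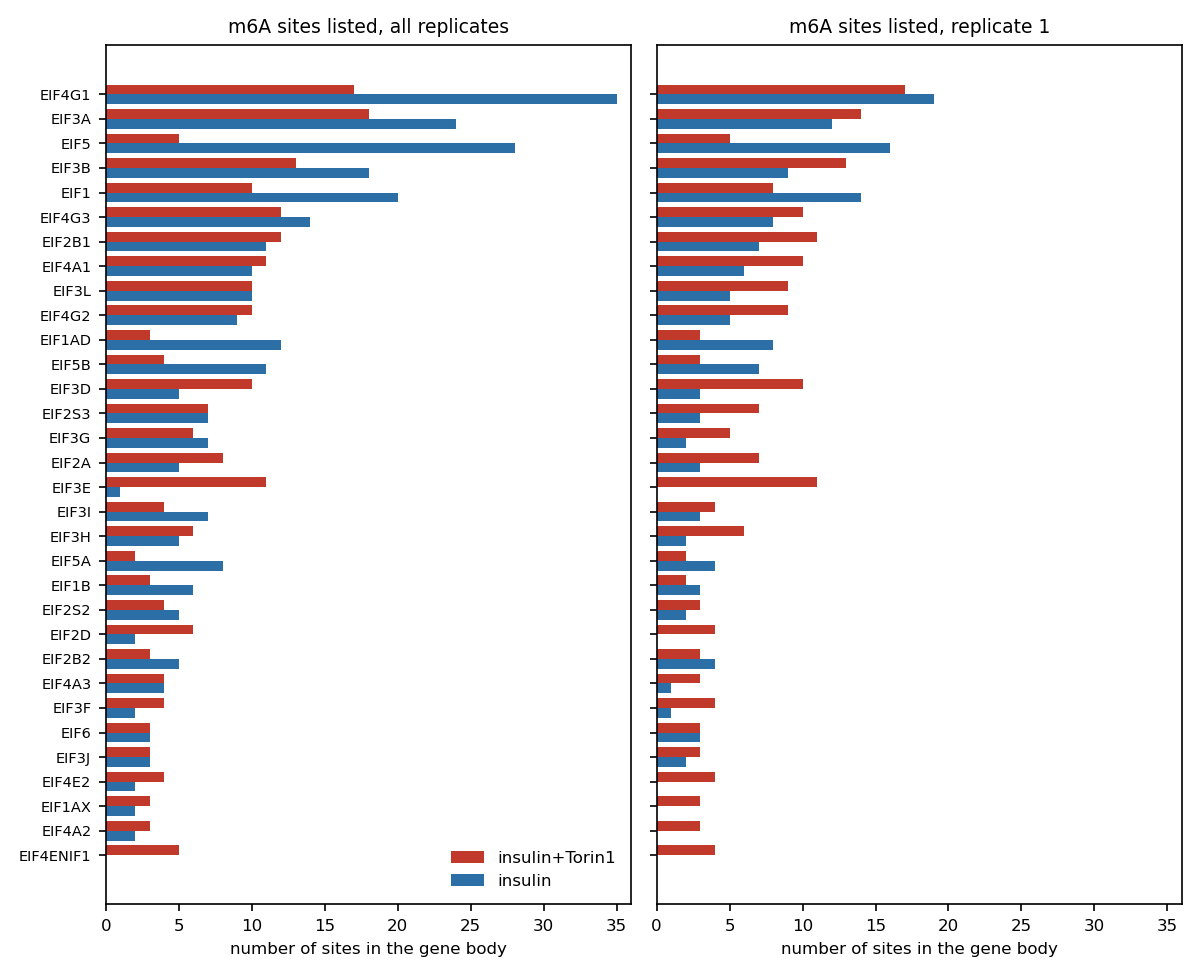
Number of listed m6A sites (x axis) in the body of each initiation factor gene with at least 5 sites over both lists, for insulin+Torin1 and insulin, over all replicates (left) and under replicate 1 (right). EIF5 has 5 and 28 sites over all replicates and 5 and 16 under replicate 1, while EIF3A and EIF3B change order between the panels.

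The sites with the most substituted reads lay in EIF4G1 in both lists. After its top sites came a site in EIF2B1 in the insulin+Torin1 list. In the insulin list a site in EIF1AD came next, above that of EIF2B1. All of these stood under replicate 1 of both conditions. In EIF4G1 the leading sites formed 2 clusters, at chr3:184321572 and chr3:184321790 and, within 415 bases of the gene's annotated end, at chr3:184334943 and chr3:184334972. At chr3:184321790 (gaAct) 31 of 296 reads were substituted with Torin1, which is 10.5% (95% Wilson interval 7.48 to 14.5), and 61 of 221 with insulin alone, which is 27.6% (22.1 to 33.8). The neighbouring site at chr3:184321572 (tgAca) had 27 of 165 reads with Torin1, 16.4% (11.5 to 22.8), and 15 of 100 with insulin alone, 15.0% (9.31 to 23.3). The first interval pair does not overlap and the second nearly coincides, so the share at the first site was lower with Torin1 in these 2 libraries while its neighbour showed no detectable difference at this depth.

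Near the end of EIF4G1, chr3:184334972 (ggAct) had 24 of 727 reads with Torin1, 3.30% (2.23 to 4.87), and 16 of 275 with insulin alone, 5.82% (3.61 to 9.24). The site at chr3:184334943 (ggAca) had 14 of 440 with Torin1, 3.18% (1.90 to 5.27), and 17 of 189 with insulin alone, 8.99% (5.69 to 13.9). The intervals of the second site do not overlap. In EIF2B1, chr12:123621309 (aaAca) had 19 of 126 reads with Torin1, 15.1% (9.87 to 22.4), and 9 of 66 with insulin alone, 13.6% (7.34 to 23.9), which overlap. In EIF1AD, chr11:65998496 (ggAca) had 2 of 36 reads with Torin1, 5.56% (1.54 to 18.1). With insulin alone it had 10 of 48, 20.8% (11.7 to 34.3), and these intervals also overlap. The intervals cover counting error only and not the choice of these sites by their number of substituted reads. With 1 library per condition at each position there is no replicate check.

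**Figure D5:**
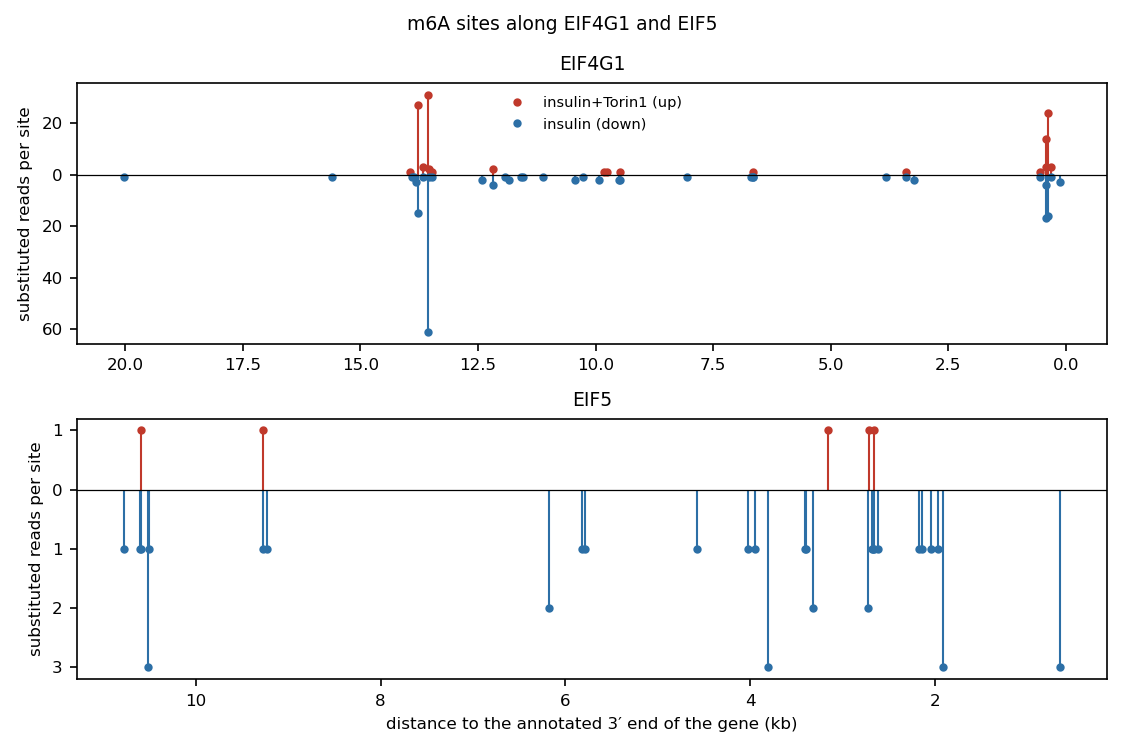
Substituted reads per listed m6A site (y axis, insulin+Torin1 upward and insulin downward) against the distance to the annotated 3′ end of the gene in kb (x axis) for EIF4G1 and EIF5. EIF4G1 has its highest sites about the same place in both conditions, with 31 and 61 substituted reads at the highest, while the sites of EIF5 carry at most 3 substituted reads and are fewer with Torin1.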

How the data were processed

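The expression table deposited by the authors held a score per gene and input library: values normalized between libraries and rounded, as evenly missing whole numbers show, so no count test was used. The m6A value deposited by the authors is the fraction of substituted reads over a site. The submitters' processing notes name, without a role, DESeq2 1.22.2, DESeq, STAR, BWA 0.7.1 and hg38, and the normalization method is not given in the sources used here. Groups and replicates came from sample titles. Here log2(value + 1) was fitted with limma 3.58.1 (R 4.3.3) with a variance trend on genes that reached 10 in 3 or more of the 6 libraries, with Benjamini-Hochberg adjustment over 13842 genes and limma's treat for changes beyond 1.5-fold. The pseudocount shrinks fold changes of low genes. In simulated data, 0 of 13727 genes were called when nothing was changed. Planted log2 changes of 0.2 were called in 28.0% of 50 genes, those of 0.5 in 88.0% and those of 1.0 in 98.0%. The simulation used 1 spread setting for all genes and no rescaling between libraries, so these shares can differ in the real data. Alternatives were other pseudocounts, filter, scaling, trend, a replicate block and each library left out. Deviations of same-numbered libraries correlated at -0.023 to 0.0097, so no pairing by number was seen. Because deviations within a group lay near sampling noise, a weak pairing could be missed. Members called beyond 1.5-fold and paralog sets are given per library, and other members by fold change. Regulators, m6A genes and sites followed ranks of change or number. Members and lists were chosen with earlier results of these data known. Python 3.11.15, pandas 2.3.3 and matplotlib 3.10.9 made the site numbers and figures.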

Additional observations from a re-analysis of the deposited data

How the results depend on the processing

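Of 46 tested members, 37 kept direction and call under all 13 alternatives: pseudocounts, filter, scalings, trend, block and each library left out. Over these, 20 to 23 members were higher and 18 to 20 lower. The replicate block gave 21 higher and 20 lower, losing EIF6 (adjusted p = 0.062), and no pairing of same-numbered libraries was seen. Equal totals moved the median of all genes by 0.12. Quantile normalization turned EIF3B to 0.06, EIF3I to 0.04, EIF3K to 0.04, EIF4A1 to -0.28, EIF4E to -0.18, EIF4G3 to 0.24 and EIF4H to 0.20, and equal totals turned EIF4G3 to 0.05 and EIF4H to 0.11 (log2 fold changes). Leaving out 1 library gave -0.00 to 0.14 for EIF4A1 (turned without insulin replicate 1), -0.01 to 0.08 for EIF4E (turned without insulin+Torin1 replicate 1) and -0.08 to 0.03 for EIF4H (turned to 0.03 without insulin replicate 1 and 0.01 without insulin replicate 3). Without a trend the calls of EIF4G3 (adjusted p = 0.1) and EIF6 (0.078) were lost. The causes were not tested.

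Member m6A sites depend on the replicates: 243 with Torin1 and 294 with insulin became 100 and 101 with at least 2 substituted reads (difference -1), and the difference of -51 became 62 under replicate 1, where the insulin list had 158. Leaving out a replicate gave 23 to 240 sites with Torin1, 136 to 270 with insulin and a difference of -113 to 58, with 11 to 31 members having fewer and 2 to 31 more. Under replicate 1, 10 had fewer and 32 more. Torin1 minus insulin turned to 2, 1 and 4 in EIF3A and 4, 2 and 3 in EIF3B (replicate 1, at least 2 substituted reads, without replicate 2). Leaving out a replicate gave -8 to 4 in EIF3A, -9 to 3 in EIF3B, -1 to 11 in EIF3E and -2 to 7 in EIF3D, the lowest each without replicate 1 (EIF3A also without replicate 3). Depth limits sites with few reads.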

Other observations

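EIF2S3L, the intronless copy of EIF2S3, held a site at chr12:10506782 (agAca) where 9 of 9 reads were substituted with Torin1 (95% Wilson interval 70.1 to 100%) and 4 of 4 with insulin alone. This site was picked after its values were seen, and whether its reads came from EIF2S3 was not tested. The body of EIF2S1 overlaps another protein-coding gene, so its sites were left out above. With any gene body allowed, EIF2S1 held 3 sites with Torin1 and 5 with insulin alone.

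Within 2000 nt of the annotated gene end lay 92 of 243 member sites with Torin1 and 101 of 294 with insulin alone. The eIF1 genes had most of their sites there, 16 of 19 with Torin1 and 26 of 40 with insulin alone, and the eIF3 genes few, 22 of 87 and 20 of 87. Distances are genomic with introns included, and the gene bodies differ in length. For example, EIF1B spans chr3:40309707-40312424 and EIF3A chr10:119033670-119080817. The part of gene length in these shares was not tested, and no share over all genes was computed.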
